A study of Homo sapiens with 6 samples.

Results

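The genes of the actin cytoskeleton were examined in PANC-1 cells, a human pancreatic cancer cell line, after knockdown of ZDHHC20, an enzyme that attaches palmitate to cysteines of other proteins. The 44 given genes were tropomyosins, actins, actin-binding and actin-regulating proteins, myosin II subunits, and the transcription factor SRF with its coactivators. This list was chosen with earlier results of these data known. All 44 were found in the deposited table of 27394 genes, the 6-library mean of each was 1 or more, and for 43 it was 10 or more. RNA was sequenced from 3 libraries labelled shControl and 3 labelled shZDHHC20, both from PANC-1 cells that received a short hairpin RNA by transfection or infection, grown with fetal bovine serum in RPMI-1640 by the labels and in DMEM by the study's methods. The study used more than one hairpin against ZDHHC20, and the labels do not name the one used here. Nothing in the labels says that the 3 libraries of a group came from separate cultures, so the p-values measure the spread between these libraries, which may be technical.

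Actin filaments grow from monomers that profilin and the thymosins hold ready, are nucleated by the ARP2/3 complex and formins, are capped at their barbed ends, and are severed by the cofilin family. Tropomyosins are coiled-coil proteins that lie along the filament and set which myosins and severing proteins can reach it, and in non-muscle cells they mark stress fibres and other filament populations. Many of these genes are transcribed through SRF, which binds a short element named the CArG box, and its coactivators MRTFA and MRTFB are held in the cytoplasm by free actin monomers, so that the pool of monomeric actin feeds back on transcription.

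Among the 44 genes, the changes in TPM4 and CFL2 were the largest in size. TPM4, a tropomyosin gene, rose in the knockdown to 185% of the control mean, while TPM2 fell to 85.1% and TPM3 rose to 122%. The TPM2 and TPM3 calls were each lost when any 1 library other than shZDHHC20 replicate 2 was left out. CFL2, a cofilin that severs filaments, fell to 59.4%, and CAPZA1, a subunit of the barbed-end capping protein, fell to 69.1%. TMSB4X, a thymosin that sequesters actin monomers, rose to 136%, and MYL9, a regulatory light chain of myosin II, rose to 131%. The main cytoplasmic actins and SRF itself did not pass the test, though ACTB was called as higher under quantile normalization and without 1 knockdown library.

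The values are normalized counts, meaning gene counts multiplied by 1 factor per library, and are not divided by gene length. The test was limma on log2(value + 0.1), two-sided, with Benjamini-Hochberg adjustment over the 22189 genes whose mean was 1 or more, and a gene was called at an adjusted p under 0.05. In this test 11.5% of all genes tested were called, 4.61% as higher and 6.84% as lower in the knockdown, while 15 of the 44 genes (34.1%) were called, 8 as higher and 7 as lower. Most of the 44 are abundant, and abundant genes were called more often: 27.8% of those whose mean reached 1000 were called, against 13 of the 37 members above that level. The groups did not overlap in 23 members (52.3%), against 28.6% of all genes tested and 49.3% of those whose mean reached 1000. The median log2 fold change of the members, with ACTA2 left out, was 0.03, beside 0.01 for all genes tested, and their median absolute log2 fold change was 0.13, beside 0.25 for all genes tested and 0.12 for those whose mean reached 1000. The changes within the list went both ways. Because the list was chosen with earlier results of these data known, these shares describe it and are not a test. With values quantile-normalized, 18 members were called and the split was 13 higher and 5 lower in place of 8 and 7, beside 11.0% of all genes, 5.25% as higher and 5.71% as lower. In a fit without a mean-variance trend, TPM4 was the one member called, beside 351 of the 22189 genes tested.

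ZDHHC20 itself was at 2001, 2033 and 1940.4 normalized counts in shControl replicates 1, 2 and 3 and at 872, 779 and 893 in the shZDHHC20 replicates. The knockdown left 42.6% of the control mean (log2 fold change −1.23, SE 0.06, adjusted p = 4.36e-07). If the smallest value in a library stands for 1 read, the reads counted in genes were 16575546 to 18441049 per library. One library stood apart: shZDHHC20 replicate 2 differed from the other knockdown libraries with an SD of log2 differences of 0.178 to 0.198 over genes whose mean reached 1000, where replicates 1 and 3 differed by 0.0722 and the control libraries by 0.0674 to 0.0718. Its mitochondrial share was 4.01%, against 5.28% to 5.52% in the other libraries. Without this library 27 of the 44 members were called, 17 as higher and 10 as lower, and all 15 calls of the full comparison were among them, beside 19.2% of all genes, 8.55% as higher and 10.7% as lower. In bulk RNA of this kind, fewer cells of a type and less RNA per cell cannot be told apart.

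The genes that mark an epithelial cell were checked beside the cytoskeletal ones. The keratins KRT8, KRT18 and KRT19 had control means of 56187, 19660.2 and 5917 normalized counts and were not called, with log2 fold changes of −0.13, −0.16 and 0.09. EPCAM, an epithelial adhesion molecule, rose from 72.4 ± 20.5 (SD, n = 3) to 525 ± 43.7 (log2 fold change 2.89, adjusted p = 6.70e-07), and CDH1, which encodes E-cadherin, rose from 287 ± 12.8 to 629 ± 54.0 (log2 fold change 1.13, adjusted p = 6.62e-06). Of 9 epithelial markers tested, 3 were higher (33.3% called, beside 11.5% of all genes tested) and none was lower in the full comparison. KRT8 and KRT18 lay below the control in every knockdown library and were called in 2 and 4 of 15 alternatives. Without shZDHHC20 replicate 2 both were called as lower, at −0.15 (adjusted p = 5.90e-05) and −0.10 (adjusted p = 0.00413). The summed level of the epithelial markers was 85629 to 87727 in the control and 80731 to 82908 in the knockdown libraries. Of 5 fibroblast markers tested 1, COL1A1, fell, and the list summed to 3993 to 4063 in the control and 3203 to 3490.4 in the knockdown. None of 3 smooth muscle markers tested was called, at summed levels of 937 to 1069 and 1026 to 1048, nor of 2 endothelial markers, at 40.05 to 55.6 and 32.9 to 47.7, nor of 2 leukocyte markers, at 26.0 to 36.4 and 23.3 to 45.1. Most of the smooth muscle sum was SMTN, with means of 978 in the control and 988 in the knockdown. MYH11 and LMOD1 had control means of 33.5 and 9.4. The smooth muscle marker ACTG2 was at 0 to 1.92 in every library. The part of the moving markers in the cytoskeletal differences was not tested.

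Of the 4 tropomyosin genes, TPM4 and TPM3 were called as higher, TPM2 was called as lower, and TPM1 was not called. TPM4 was at 3159, 3274 and 3295 normalized counts in the control libraries and at 6227, 5573 and 6182 in the knockdown libraries. Every knockdown library was far above every control library, and replicate 2 was the lowest of the 3. The log2 fold change was 0.88 (SE 0.05, adjusted p = 9.55e-07), and TPM4 was the member called under all 15 alternative settings, with a log2 fold change of 0.86 to 0.94. Without shZDHHC20 replicate 2 it was 0.94.

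TPM2, the beta-tropomyosin gene, was at 4227, 4053 and 4229 in the control and at 3475, 3888 and 3286 in the knockdown libraries. The groups did not overlap, and replicate 2 lay nearest to the control (log2 fold change −0.24, SE 0.06, adjusted p = 0.0224). TPM3 was at 8941, 9061 and 9112 in the control and at 11542, 9732 and 11744.5 in the knockdown libraries. Here too replicate 2 lay nearest to the control (log2 fold change 0.28, SE 0.06, adjusted p = 0.0104). Both calls were lost when any 1 library other than shZDHHC20 replicate 2 was left out, with adjusted p up to 0.144 for TPM2 and 0.0982 for TPM3. Without that replicate the log2 fold changes were −0.30 (adjusted p = 1.33e-04) and 0.37 (adjusted p = 1.70e-06). TPM3 has processed copies elsewhere in the genome, of which 2 were in the table and summed to 1.61% of the TPM3 level, so its count is uncertain to that extent.

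TPM1 was at 3747, 3866 and 3936 in the control and at 4385, 4042 and 4471 in the knockdown libraries. These groups did not overlap, yet TPM1 did not pass the test (log2 fold change 0.16, SE 0.05, adjusted p = 0.0681). It passed in 4 of 15 alternatives, among them that without shZDHHC20 replicate 2 (log2 fold change 0.20, adjusted p = 0.00103). TPM1 and TPM4 have antisense genes over their exons, and whether counting used the strand is not stated. The partner TPM1-AS was at 0.476% of the TPM1 level.

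**Figure D1:**
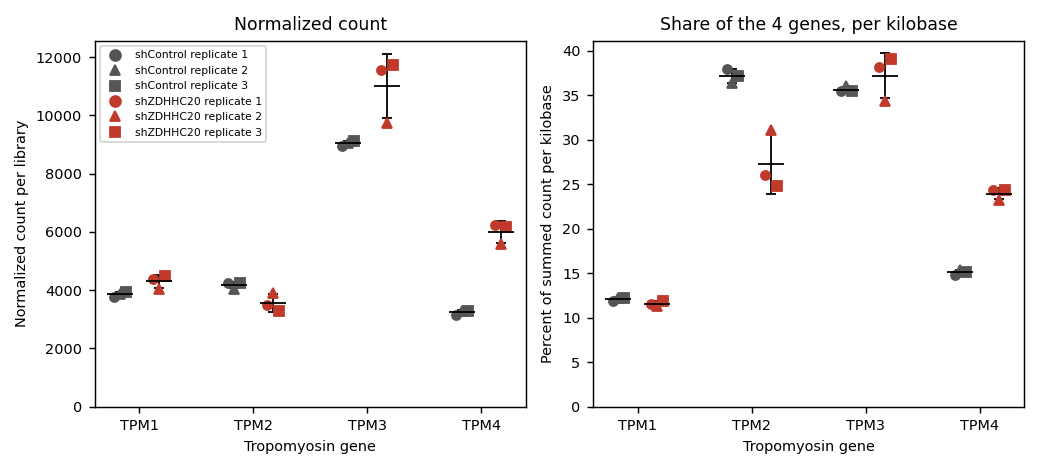
Normalized counts (left) and shares of the summed count per kilobase of transcript (right, percent) of TPM1 to TPM4 in the 3 shControl (grey) and 3 shZDHHC20 (red) libraries. Points are libraries, dashes are group means and bars are SDs. TPM4 rose from a mean of 3243 to 5994 normalized counts and from 15.1% to 24.0% of the summed tropomyosin level, while the TPM2 share went from 37.2% to 27.3%.

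Divided by the length of the longest coding transcript, the levels of the 4 genes could be set beside each other. In the control, TPM2 and TPM3 led with 2995 and 2870 normalized counts per kilobase, followed by TPM4 with 1216 and TPM1 with 973. In the knockdown, TPM3 led with 3495, followed by TPM2 with 2550, TPM4 with 2248 and TPM1 with 1087. The TPM4 share of the summed level per kilobase was 15.1% ± 0.286 (SD, n = 3) in the control and 24.0% ± 0.621 in the knockdown. The TPM2 share was 37.2% ± 0.751 and 27.3% ± 3.34. In an exact permutation test of 3 against 3 libraries, two-sided, both differences gave p = 0.1, the smallest value this design allows, so no such test can pass 0.05. The TPM3 share was 35.6% ± 0.313 and 37.2% ± 2.51 and overlapped between the groups, and the TPM1 share was 12.1% ± 0.219 and 11.6% ± 0.247. With the union of all exons as length, an alternative chosen after seeing the data, the TPM4 share was 12.4% and 20.2% and the TPM2 share 42.3% and 31.9%. The 4 genes together summed to 20300 ± 253 normalized counts in the control and 24849 ± 1398 in the knockdown, a ratio of 1.22 (exact permutation p = 0.1).

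As ratios of counts within a library, TPM4 to TPM1 went from a log2 ratio of −0.25 ± 0.01 (SD, n = 3) to 0.48 ± 0.02. TPM4 to TPM2 went from −0.36 ± 0.06 to 0.76 ± 0.21, and TPM4 to TPM3 from −1.48 ± 0.02 to −0.87 ± 0.06. A change of scale in 1 library cannot move such a ratio, and in each of the 3 the groups stayed apart. For each ratio the exact permutation p was 0.1, the smallest possible.

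Sequences upstream of the genes were searched for the CArG box, the SRF element of CC, a run of A and T bases, and GG. The windows were RefSeq promoters on GRCh38.p14, from 250 bases before to 50 bases after each annotated start. The element has the same pattern on both strands, so a single search covers both. It was found in 454 of 35116 windows (1.29%) and, by gene, in 438 of 27305 genes (1.60%). Among the members with a window, 7 of 40 genes (17.5%) held it: TPM4, ACTN1, FLNA, ACTG1, CNN2, FHL2 and SRF. The list was made up in part of SRF and its listed targets, so this share describes the list and is not a test. Members without a window were ACTB, TAGLN, MYL9 and PFN2. The matched stretches are shown because they allow the SRF element to be set beside each gene's change, with the CArG box in capitals and each written 5′ to 3′ on the strand of the gene.
TPM4, chr19:16067355-16067384, plus strand: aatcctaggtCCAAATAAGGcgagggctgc
ACTN1, chr14:68977718-68977747, minus strand: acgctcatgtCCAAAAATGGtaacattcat
FLNA, chrX:154374709-154374738, minus strand: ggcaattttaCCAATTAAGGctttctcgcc
ACTG1, chr17:81512874-81512903, minus strand: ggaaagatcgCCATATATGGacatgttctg
CNN2, chr19:1026509-1026538, plus strand: cgcctccaggCCTTATAAGGacatttgcgc
FHL2, chr2:105399091-105399120, minus strand: gcgtgcatctCCTTATATGGtcaaatgaca
FHL2, chr2:105438595-105438624, minus strand: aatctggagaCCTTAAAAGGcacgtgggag
SRF, chr6:43171239-43171268, plus strand: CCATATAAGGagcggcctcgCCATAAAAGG

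The TPM4 element began 173 bases before the annotated transcription start in 1 of the 3 TPM4 windows. TPM1, TPM2 and TPM3 had 1, 2 and 2 windows without these letters, which says nothing of elements elsewhere. The FHL2 gene had an element at separate starts, and SRF had 2, of which the first began 30 bases and the next 10 bases before the annotated start. Of the 7 genes with a match, TPM4 was higher, ACTN1 and FLNA were lower, and ACTG1, CNN2, FHL2 and SRF were not called. The calls among the genes that share the element in these windows were therefore not all in the same direction. The ACTN1 call was lost in 6 of 15 alternatives. The FLNA call was lost in 11 of 15, and its sign turned under quantile normalization (0.03). A match is a description of the sequence and not a measured binding site.

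The tropomyosins were compared with the other SRF targets of the list. Both groups were chosen with earlier results of these data known, so the comparison is a description and not a test. Of TPM1 to TPM4, 3 were called (75%), 2 as higher and 1 as lower, with a median log2 fold change of 0.22. The TPM2 and TPM3 calls were each lost in 6 of 15 alternatives. Among the other SRF targets 20% were called. Among all genes tested 11.5% were called, and 27.8% of those whose mean reached 1000. Of the 15 other members listed as SRF targets, 3 were called, with MYL9 higher and ACTN1 and FLNA lower, and the median log2 fold change, with ACTA2 left out, was −0.03, 7 genes being above 0 and 7 below. Under quantile normalization the medians were 0.26 and 0.06, and with the GC correction the median of the other targets was 0.0024. TPM4 lay above all the others on the log2 scale, and no other SRF target of the list passed a log2 fold change of 0.46, the value of CNN1, which was not called.

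SRF, the transcription factor, was at 1595, 1546 and 1583 normalized counts in the control and at 1591, 1800.3 and 1408 in the knockdown libraries. The knockdown libraries lay on both sides of the control (log2 fold change 0.02, SE 0.08, adjusted p = 0.936), and the sign turned without replicate 2 (−0.07). MRTFA, the first of its actin-sensing coactivators, was at 1300.1 to 1469 in all 6 libraries (log2 fold change −0.05, SE 0.06, adjusted p = 0.725), and its sign turned with the GC correction. MRTFB, the related coactivator, was at 2536, 2641 and 2598 in the control and at 3283, 2947 and 3359 in the knockdown libraries. All 3 knockdown libraries were above the control (log2 fold change 0.30, SE 0.06, adjusted p = 0.00411), and the call was lost only without shControl replicate 1 (adjusted p = 0.0520) and in the fit without a mean-variance trend. The log2 ratio of MRTFB to MRTFA went from 0.88 ± 0.07 (SD, n = 3) to 1.22 ± 0.13 (exact permutation p = 0.1).

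SRF targets outside the 44 genes were also counted. Of 21 further cytoskeletal SRF targets tested, 8 were called (38.1%), 2 as higher and 6 as lower. Of all genes tested 11.5% were called, and 27.8% of those whose mean reached 1000. SVIL, which encodes the membrane-linked actin binder supervillin, rose from 2351 ± 70.5 (SD, n = 3) to 3074 ± 99.1 normalized counts (log2 fold change 0.39, adjusted p = 3.06e-04), and CSRP1, a LIM-domain protein of actin bundles, rose as well (log2 fold change 0.21, adjusted p = 0.0434), a call lost in 8 of 15 alternatives, among them the 3 fits without 1 control library and that without shZDHHC20 replicate 3 (adjusted p up to 0.274). CCN2, a secreted matricellular protein, fell from 3129 ± 115 to 2364 ± 145 (log2 fold change −0.41, adjusted p = 5.01e-04). ITGA5, the integrin subunit of the fibronectin receptor, fell with a log2 fold change of −0.28 (adjusted p = 0.00255), and MYLK, the kinase that phosphorylates the myosin light chain, with −0.38 (adjusted p = 0.00445). Of 10 immediate early SRF targets tested, 4 were called (40%), and all 4 were lower. For 4 of the 10 the log2 fold change was above 0, and none of those was called. EGR1, a zinc-finger transcription factor induced within minutes of growth factor signalling, fell from 325 ± 13.4 to 149 ± 18.2 (log2 fold change −1.14, adjusted p = 3.65e-05). DUSP1, a phosphatase of MAP kinases, fell with −0.54 (adjusted p = 6.15e-05), and FOSL1, an AP-1 subunit, with −0.36 (adjusted p = 6.39e-04). In the fit without a mean-variance trend the SVIL, CCN2, ITGA5, MYLK and FOSL1 calls were lost (adjusted p up to 0.110). The EGR1 and DUSP1 calls were kept there. Many of these genes are known targets of other transcription factors as well.

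The actins themselves did not pass the test. ACTB, the beta-actin gene, was at 85700, 85326 and 87293 normalized counts in the control and at 90663, 77087 and 93479.6 in the knockdown libraries. Replicate 2 lay below and the other two knockdown libraries above the control (log2 fold change 0.01, SE 0.06, adjusted p = 0.942). Without replicate 2 ACTB was called at a log2 fold change of 0.10 (adjusted p = 0.00168), it was also called under quantile normalization at 0.23, and without replicate 1 or replicate 3 of the knockdown the sign was negative. ACTG1, the gamma-actin gene, was at 78279 to 80866 in the control and at 68828 to 79778 in the knockdown libraries (log2 fold change −0.07, SE 0.05, adjusted p = 0.442), and its sign turned under quantile normalization. ACTA2, the smooth muscle actin gene, was at 0.939 to 3.18 normalized counts in every library, which is 3 counts or fewer, so no fold change is given. Which of ACTB and ACTG1 had the higher level per kilobase depended on the length chosen, and no order is given.

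Of the 11 genes that bind or crosslink filaments, 1 was higher and 4 were lower (45.5% called). Beside this, 11.5% of all genes tested were called and 27.8% of those whose mean reached 1000. The alpha-actinins ACTN1 and ACTN4, which bundle filaments, both fell. ACTN4 was at 59666, 57054 and 59329 in the control and at 49816, 52665 and 49314 in the knockdown libraries. All 3 knockdown libraries were below the control (log2 fold change −0.21, SE 0.04, adjusted p = 0.00446), though the call was lost under quantile normalization and without shControl replicate 1, shControl replicate 3 or shZDHHC20 replicate 1 (adjusted p up to 0.0731). ACTN1 was at 5387, 5348 and 5319 in the control and at 4916, 4447 and 4751 in the knockdown libraries, again without overlap (log2 fold change −0.19, SE 0.05, adjusted p = 0.0246). Its call was lost without any 1 control library or without shZDHHC20 replicate 3 (adjusted p up to 0.134).

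FLNA, filamin A, which joins filaments into networks, was at 38499, 37164 and 38707 in the control and at 34759, 34659.7 and 34772.5 in the knockdown libraries. The 3 knockdown libraries lay close together below the control (log2 fold change −0.13, SE 0.04, adjusted p = 0.0367), but the sign turned under quantile normalization (0.03) and the call was lost in 11 of 15 alternatives, among them each library left out other than shZDHHC20 replicate 2 (adjusted p up to 0.213). CNN3, an acidic calponin, was at 1046, 984 and 1048 in the control and at 808, 892 and 844 in the knockdown libraries. It was lower in each (log2 fold change −0.28, SE 0.07, adjusted p = 0.0153), and the call was lost without shControl replicate 1, shControl replicate 3 or shZDHHC20 replicate 1 (adjusted p up to 0.0991). TAGLN2, transgelin-2, a calponin relative of epithelial cells, was at 11288, 10853 and 11041.5 in the control and at 12925, 14284 and 12584 in the knockdown libraries. This was the member of the group that rose (log2 fold change 0.26, SE 0.05, adjusted p = 0.00457), with replicate 2 the highest, and the call was lost without shControl replicate 2 or 3 (adjusted p up to 0.0587).

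The other 6 genes of this group were not called. The smooth muscle genes TAGLN and CNN1 were low, at 84.1 to 135 and 25.3 to 48.8 normalized counts over the 6 libraries. CNN1 did not overlap between the groups, with a log2 fold change of 0.46 and an SE of 0.25 (adjusted p = 0.286), and TAGLN had 0.18 with an SE of 0.18. CNN2, the calponin of non-muscle cells, had a log2 fold change of 0.07, CALD1, the tropomyosin partner caldesmon, −0.18, and LIMA1, which stabilizes stress fibres, 0.08. FHL2, a LIM-domain cofactor, did not overlap between the groups (log2 fold change 0.12, SE 0.04, adjusted p = 0.0892). Without shZDHHC20 replicate 2, LIMA1 and FHL2 were called as higher, at 0.16 and 0.11, and FHL2 was also called under quantile normalization (0.17). TAGLN shares exon positions with PCSK7 on the other strand, which was at 579% of the TAGLN level, so the TAGLN count is uncertain.

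**Figure D2:**
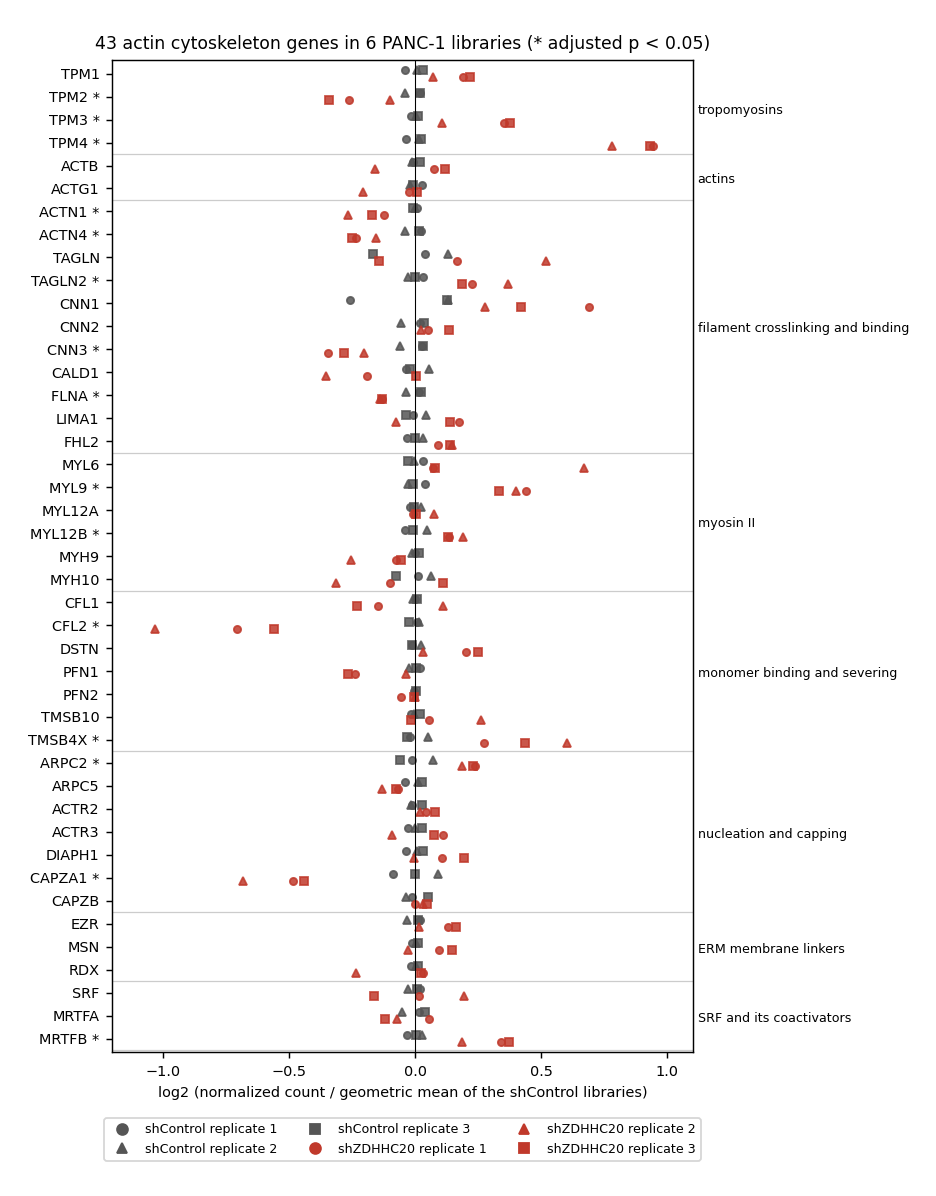
Log2 of the normalized count divided by the geometric mean of the shControl libraries for 43 of the 44 genes, grouped by role (ACTA2 is not drawn). Each point is a library (grey, shControl; red, shZDHHC20; circle, triangle and square for replicates 1, 2 and 3), and an asterisk marks an adjusted p under 0.05. TPM4 lies farthest to the right and CFL2 farthest to the left, and triangles of the knockdown often lie away from the other red points.

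Of the 6 myosin II genes, 2 were called (33.3%) and both were higher. Called shares were 11.5% over all genes tested and 27.8% over those whose mean reached 1000. MYL9, the regulatory light chain whose phosphorylation drives contraction, was at 556, 529 and 537 in the control and at 732, 713 and 680.4 in the knockdown libraries. All knockdown libraries were above the control (log2 fold change 0.39, SE 0.07, adjusted p = 0.00268), and only the fit without a mean-variance trend lost the call (adjusted p = 0.0635). MYL12B, a near-identical light chain gene, was at 6057, 6419 and 6191 in the control and at 6836, 7103 and 6805 in the knockdown libraries. It was higher by a small step (log2 fold change 0.15, SE 0.04, adjusted p = 0.0431), and the call was lost with any 1 library left out other than shZDHHC20 replicate 2 (adjusted p up to 0.211). MYL12A, its neighbour, had a log2 fold change of 0.02 (adjusted p = 0.807). Because MYL12A and MYL12B are close copies, reads shared between them make both counts uncertain.

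MYL6, the essential light chain, showed how 1 library could set a mean. It was at 4507, 4388 and 4327 in the control and at 4632, 7015 and 4659 in the knockdown libraries. Replicate 2 was far above the rest, and the gene was not called with it (log2 fold change 0.27, SE 0.12, adjusted p = 0.172) or without it (0.08, adjusted p = 0.109). MYL6 shares exons with MYL6B on the same strand, which was at 11.96% of its level, and with SMARCC2 on the other strand, at 47.7%. The heavy chain genes MYH9 and MYH10 were not called, with log2 fold changes of −0.13 (SE 0.05, adjusted p = 0.139) and −0.10 (SE 0.09, adjusted p = 0.568). The groups did not overlap for MYH9, which was called without shZDHHC20 replicate 2 (adjusted p = 0.0281), and the sign of MYH10 turned without that replicate. MYH10 shares exon positions with NDEL1 on the other strand, at 125% of its level.

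Of the 7 genes that bind monomers or sever filaments, TMSB4X rose and CFL2 fell (28.6% called). Over all genes tested the share was 11.5%, and over those whose mean reached 1000 a similar 27.8%. CFL2, the cofilin best known from muscle, was at 3175, 3192 and 3109.8 in the control and at 1935, 1547 and 2146 in the knockdown libraries. Every knockdown library was far below the control, and replicate 2 was the lowest (log2 fold change −0.76, SE 0.09, adjusted p = 1.30e-04). Without replicate 2 the value was −0.63 (adjusted p = 3.31e-06), and the fit without a mean-variance trend alone lost the call (adjusted p = 0.0786). CFL1, the main non-muscle cofilin, was at 14343 to 14518 in the control and at 12314 to 15583 in the knockdown libraries, with replicate 2 above and the others below the control (log2 fold change −0.09, SE 0.07, adjusted p = 0.480). Without replicate 2 it was called at −0.19 (adjusted p = 3.64e-04). DSTN, destrin, which severs filaments as the cofilins do, was at 11623 to 11931 in the control and at 11982 to 13953 in the knockdown libraries. It did not pass the test (log2 fold change 0.16, SE 0.05, adjusted p = 0.0751) and passed without replicate 2 (0.23, adjusted p = 5.94e-05), under quantile normalization (0.25) and with the GC correction (0.13).

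Per kilobase, CFL2 made up 4.11% ± 0.058 (SD, n = 3) of the summed level of CFL1, CFL2 and DSTN in the control and 2.51% ± 0.523 in the knockdown. With the union of all exons as length, an alternative chosen after seeing the data, the shares were 7.40% and 4.35%. The log2 ratio of CFL2 to CFL1 counts went from −2.19 ± 0.03 to −2.87 ± 0.42, and that of CFL2 to DSTN from −1.89 ± 0.02 to −2.82 ± 0.13. In both ratios the groups were apart (exact permutation p = 0.1, the smallest possible). CFL2 had the smallest share of the 3 genes in both groups with either length.

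TMSB4X, thymosin beta-4, was at 17052, 17929 and 16919 in the control and at 20912, 26269 and 23417 in the knockdown libraries. All 3 knockdown libraries were above the control (log2 fold change 0.44, SE 0.07, adjusted p = 8.07e-04), and only the fit without a mean-variance trend lost the call (adjusted p = 0.124). Its level is uncertain because 4 pseudogenes in the table summed to 15.2% of it. These pseudogenes summed to 3266, 3219 and 3281 in the control and to 3750.1, 625 and 4516 in the knockdown libraries, so they were low only in shZDHHC20 replicate 2, the library with the highest TMSB4X value. Without replicate 2 the TMSB4X log2 fold change was 0.36 (adjusted p = 1.01e-04). TMSB10, the related thymosin, was not called (log2 fold change 0.10, SE 0.06, adjusted p = 0.353), and the log2 ratio of TMSB4X to TMSB10 went from 0.30 ± 0.05 to 0.64 ± 0.12 (exact permutation p = 0.1). Of the profilins, which hand monomers to growing ends, PFN1 had a log2 fold change of −0.18 (SE 0.06, adjusted p = 0.0587), with no overlap between groups, and PFN2 one of −0.02 (adjusted p = 0.835). PFN1 was called in 4 of 15 alternatives, among them that without replicate 2 (−0.25, adjusted p = 2.07e-05).

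Of the 7 genes of nucleation and capping, 1 rose and 1 fell (28.6% called). The share was 11.5% over all genes tested and 27.8%, a similar share, over those whose mean reached 1000. CAPZA1, the alpha-1 subunit of capping protein, was at 2734, 3090.4 and 2901 in the control and at 2079.6, 1809.7 and 2140.3 in the knockdown libraries. All 3 knockdown libraries were below the control (log2 fold change −0.54, SE 0.07, adjusted p = 2.60e-04), and only the fit without a mean-variance trend lost the call (adjusted p = 0.0797). The antisense neighbour ST7L was at 7.76% of the CAPZA1 level. CAPZB, the beta subunit with which it forms a dimer, was at 5023 to 5334 in the control and at 5155 to 5319 in the knockdown libraries and was not called (log2 fold change 0.03, SE 0.05, adjusted p = 0.779). The log2 ratio of CAPZA1 to CAPZB went from −0.83 ± 0.11 (SD, n = 3) to −1.39 ± 0.13 (exact permutation p = 0.1).

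ARPC2, a core subunit of the ARP2/3 complex, was at 3857, 4085 and 3733 in the control and at 4589.6, 4424 and 4565 in the knockdown libraries. It was higher in each (log2 fold change 0.22, SE 0.05, adjusted p = 0.0113), and the call was lost without shControl replicate 1, shControl replicate 3 or shZDHHC20 replicate 1 (adjusted p up to 0.102). The other ARP2/3 members of the list were not called: ARPC5 had a log2 fold change of −0.09 with no overlap between the groups (adjusted p = 0.273), ACTR2 had 0.05 and ACTR3 had 0.03. The formin DIAPH1, which nucleates unbranched filaments, had 0.10 (SE 0.06, adjusted p = 0.343). The membrane linkers ezrin, moesin and radixin (EZR, MSN and RDX) were not called either, with log2 fold changes of 0.10, 0.07 and −0.06 and adjusted p of 0.209, 0.431 and 0.633. Without shZDHHC20 replicate 2, ACTR3, DIAPH1, EZR and MSN were called as higher, with log2 fold changes of 0.09, 0.15, 0.15 and 0.12. EZR was also called under quantile normalization (0.17) and ARPC5 with the GC correction (−0.13).

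**Figure D3:**
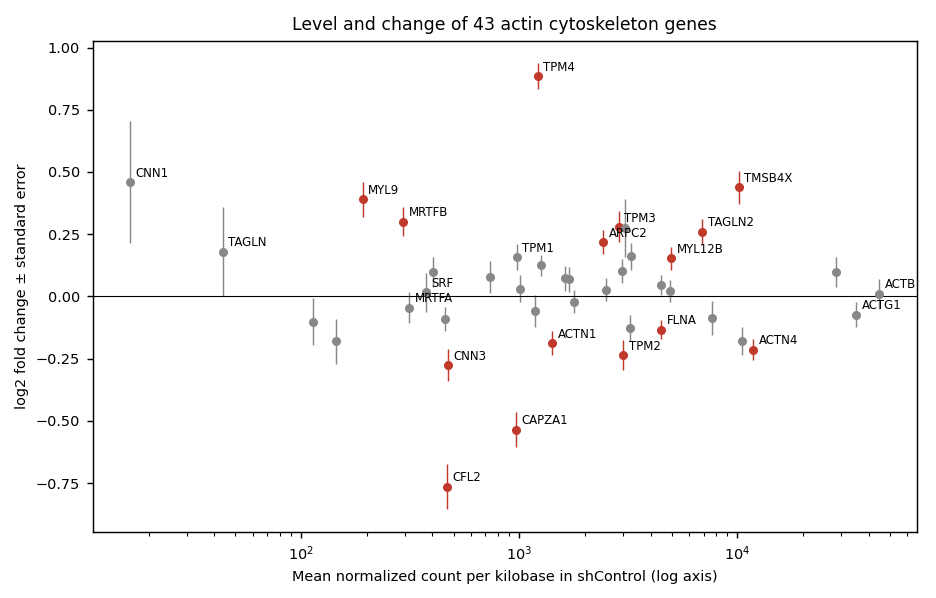
Log2 fold change with its standard error against the mean normalized count per kilobase in the shControl libraries (log axis) for 43 of the 44 genes (ACTA2 is not drawn). Red points have an adjusted p under 0.05. The most abundant genes, ACTB and ACTG1, lie near 0, TPM4 at 0.88 has a middle level of 1216 per kilobase, and CFL2 at −0.76 a lower one of 468.

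Genes outside the list that regulate actin also moved both ways. Of 39 further genes of nucleation, capping and turnover, 10 were called (25.6%), 6 as higher and 4 as lower. Of all genes tested 11.5% were called, and 27.8% of those whose mean reached 1000. CAP1, which recycles actin monomers together with cofilin, rose with a log2 fold change of 0.33 (adjusted p = 6.19e-04). WDR1, a cofilin cofactor in disassembly, rose with 0.24 (adjusted p = 0.00340), and GSN, the severing and capping protein gelsolin, with 0.27 (adjusted p = 0.00388), which was lost without shControl replicate 2. In the fit without a mean-variance trend the CAP1, WDR1 and GSN calls were all lost (adjusted p 0.0815 to 0.152). ABI2, a subunit of the WAVE complex that activates ARP2/3, fell with −0.51 (adjusted p = 8.34e-05). FHOD1, a formin, fell with −0.51 (adjusted p = 0.0245), and TMOD2, a pointed-end capping protein, with −0.68 (adjusted p = 0.0272). The FHOD1 call was lost in 5 of 15 alternatives, among them the fits without shControl replicate 1 or 2 or shZDHHC20 replicate 1 or 3 (adjusted p up to 0.192), and the TMOD2 call in 7 of 15, among them each library left out other than shZDHHC20 replicate 2 (adjusted p up to 0.128). The median of this list, 0.0025, lay close to the 0.01 of all genes.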

How the data were processed

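RNA from PANC-1 cells (3 shControl and 3 shZDHHC20 libraries) was sequenced after directional library preparation. Per the labels the genome build was hg19, and the aligner, counter and normalization tool are not given in the sources used here. The deposited signal values were made by the authors as gene counts multiplied by 1 factor per library: each value was a whole multiple, within 0.001, of the smallest value above 0 in its library, although the table is named as FPKM. Its columns named siZDHHC20 and NC were read as shZDHHC20 and shControl by their names and replicate numbers.

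Identifiers were named from a reference table (27175) or GENCODE 29 (219), and lengths and overlaps were taken from GENCODE 29 on GRCh38, a build other than that of the submitters. Genes with a mean of at least 1 were tested with limma 3.58.1 (R 4.3.3, empirical Bayes with mean-variance trend) on log2(value + 0.1), two-sided. Fold changes of genes with counts near 0 depend on the added 0.1 and are uncertain. Ratios and shares were compared by exact permutation of 3 against 3 libraries. The fit was tested on simulated data of 3 against 3 libraries, with 2-fold changes in 200 genes, of which 200 were recovered beside 2 false calls. The simulation held no smaller changes and no outlying library, so it does not cover those features of these data. The precision is that of 16575546 to 18441049 counted reads per library, if the smallest step is 1 read. Alternatives changed the pseudocount, filter, scaling, trend, replicate block and GC correction, or left out each library in turn. The members and lists were chosen with earlier results of these data known. Named genes were all members, the 3 genes with the smallest adjusted p in each direction of each related list described, ZDHHC20, and EPCAM, CDH1, KRT8, KRT18 and KRT19 among the markers. COL1A1, ACTG2, SMTN, MYH11 and LMOD1, and the overlapping genes beside a member, were named after their values were seen. One further list of related genes is not reported here.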

Additional observations from a re-analysis of the deposited data

How the results depend on the processing

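Of the log2 fold changes of the 43 members over 15 alternatives, 552 kept direction and side of the threshold, 58 were no longer past it, 24 came to pass it and 11 changed sign. Without a mean-variance trend 1 of 44 members (2.27%) was called, TPM4 as higher, and 0 as lower. In that fit 351 of 22189 genes were called, 134 as higher and 217 as lower. Under quantile normalization 13 of 44 members were higher, beside 5.25% of all genes tested. The medians were then 0.093 for the members, 0.26 for TPM1 to TPM4 and 0.057 for the other SRF targets, whose median with the GC correction was 0.0024. Leaving out 1 library each gave 6 to 27 of 44 members called (13.6% to 61.4%), 4 to 17 as higher and 2 to 10 as lower. Of the 22189 genes tested, 1036 to 4268 were called, 384 to 1897 as higher and 641 to 2371 as lower. The medians were 0.025 to 0.052 for the members, 0.18 to 0.28 for TPM1 to TPM4 and −0.040 to −0.026 for the other SRF targets. The highest counts came without shZDHHC20 replicate 2.

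The changes of sign were ACTG1 (0.077) and FLNA (0.027) under quantile normalization, ACTR3 (−0.026) and MRTFA (0.0064) with the GC correction, and, with 1 library left out, ACTB (−0.043 to 0.097, below 0 without shZDHHC20 replicate 1, at −0.0205, or 3), ACTR3 (−0.0084 to 0.094), MYL12A (−0.0018 to 0.039), MYH10 (−0.21 to 0.0057), RDX (−0.11 to 0.028) and SRF (−0.073 to 0.10). ACTR3 turned without shZDHHC20 replicate 1 and the last 4 without shZDHHC20 replicate 2. Of these FLNA was called in the full comparison. The cause was not tested.

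Same-numbered libraries did not deviate together (correlations −0.0562 to −0.0215, against −0.0084 to 0.0490 for different numbers). No pairing by number was therefore seen. With 3 libraries a group this cannot exclude that same-numbered libraries were prepared together. With the replicate block 12 of 44 members (27.3%) were called, 7 as higher and 5 as lower. In that fit 1942 of 22189 genes were called, 764 as higher and 1178 as lower. ACTN1, FLNA and MYL12B were not called with the block. The planned count models were not run: the step of the shControl values lies too near 1 for the unit check to accept recovered reads. With 3 libraries a group, exact tests cannot pass 0.05.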
